A study of Mus musculus with 15 samples.

Results

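Costimulatory receptors of the tumour necrosis factor receptor (TNFR) and CD28 families were followed in mouse CD8+ T cells before and after antigen stimulation. The 9 genes were taken by name from the deposited count tables, which hold 17493 genes: Tnfrsf9, Tnfrsf4, Tnfrsf18, Cd27, Tnfrsf1b and Tnfrsf14 of the TNFR family, Cd28 and Icos of the CD28 family, and Cd226, an immunoglobulin-type receptor. All 9 were in the tables, and 8 passed the low-count filter and were tested. Tnfrsf14 did not. Of the 8, 6 passed the test in at least 1 comparison.

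The cells were OT-I T cells, which carry the transgenic T cell receptor of the strain C57BL/6-Tg(TcraTcrb)1100Mjb/Crl and recognise an ovalbumin peptide on MHC class I. They were taken from the lymph nodes and spleen of female Charles River mice, whose age was not given in the sources used here. All 15 libraries share this transgene, so a single receptor specificity was studied. The 5 groups of 3 libraries were unstimulated cells taken at 0 h, cells kept for 8 h or 22 h with immunofilaments (IF), and cells kept for 8 h or 22 h with dendritic cells (DC). The IF are labelled IF-pMHC(SIIT)/IL-2: filaments that present MHC loaded with the SIITFEKL peptide together with interleukin-2, used at 5 ng/ml. The labels name no costimulatory ligand on them. The DC were grown with Flt-3Ligand, pulsed with SIITFEKL and given at 20000 cells per well. Each well held 50000 T cells, and viable CD8+ CD103- cells were sorted afterwards. The libraries are numbered 1 to 3 in each group by a label ending in Don, whose meaning is not stated. Nothing in the labels says that they are separate animals, so the p-values measure the spread between these samples, which may be technical.

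A naive T cell receives its first signal through the antigen receptor and a second from costimulatory receptors. CD28 binds CD80 and CD86 on antigen-presenting cells and recruits PI3-kinase and adaptor proteins, and ICOS binds ICOS ligand and signals through the same kinase. Receptors of the TNFR family bind trimeric ligands, recruit TRAF adaptors and activate the classical and alternative NF-kB pathways, which supports survival of activated CD8+ T cells. CD27 is present on naive T cells, whereas 4-1BB (Tnfrsf9), OX40 (Tnfrsf4) and GITR (Tnfrsf18) are known as receptors that are gained or increased on activation.

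Library totals ran from 2892874 to 19806730 counts, with 11427 to 13591 genes detected. No 2 replicates agreed within sampling noise. The targeted cell type was checked by its markers: the summed level of 11 T cell genes was 8214 to 8953 CPM (normalised read counts, scaled to the adjusted library total) in unstimulated libraries. It was lower after stimulation, at 4774 to 4965 CPM with IF and 3716 to 4676 CPM with DC at 8 h, and at 5126 to 6240 CPM with IF and 4056 to 5154 CPM with DC at 22 h. The sum of 5 natural killer cell markers was 84.5 to 85.7 CPM in unstimulated cells, 208 to 334 CPM with IF and 100.1 to 223 CPM with DC at 8 h, and 266 to 315 CPM with IF and 54.1 to 109 CPM with DC at 22 h. Eomes, a factor that activated CD8+ T cells also express, was called higher in all but DC 22 h, and Klra8, which marks natural killer cells, was at 0 throughout. The Eomes call with IF at 22 h (1.99, edgeR adjusted p = 0.00153) was lost without IF 22 h replicates 2 and 3 (1.80, adjusted p = 0.0664), as was that with DC at 8 h (adjusted p = 0.0431, then 0.0610). The sum of 4 CD4 and regulatory T cell markers was 24.9 to 32.0 CPM in unstimulated cells, and it was 54.4 to 71.9, 46.4 to 98.4, 31.0 to 50.6 and 61.1 to 100.2 CPM with IF 8 h, DC 8 h, IF 22 h and DC 22 h. Ikzf2 was called higher in all but IF 22 h, while Cd4 was at 0 outside IF 22 h, where its mean was 0.49 CPM. The part of these markers in the results was not tested. IF 22 h replicates 2 and 3 stood apart in mitochondrial ribosomal RNA, with 0.179% and 0.146% of counts against 3.17% in replicate 1 and 1.82% to 4.49% in the other groups. Without both of them, IF 22 h is a single library whose spread is taken from the other groups. Of all genes, 0.833% then passed for IF 22 h against unstimulated cells, 0.0673% for IF against DC at 22 h and 0% for IF at 22 h against 8 h. In these bulk samples, fewer cells of a type and less RNA per cell cannot be told apart.

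Each gene was tested with edgeR's quasi-likelihood test across the 10831 genes with enough counts, and p-values were adjusted over all of them (Benjamini-Hochberg, threshold 0.05). Differences are log2 fold changes with their standard error (SE). All comparisons with unstimulated cells share the same 3 control libraries. These were taken at 0 h, and no cells kept for 8 h or 22 h without a stimulus are among the samples. Stimulus and time in culture cannot be told apart in these comparisons. With IF at 8 h, 4 of the 8 tested receptors passed, 3 higher and 1 lower, where 7.76% of all tested genes passed, 3.04% higher and 4.72% lower. With DC at 8 h, 3 passed, 2 higher and 1 lower, against 6.82% of all genes, 2.75% higher and 4.07% lower. With IF at 22 h, 3 passed and all were higher, against 6.08% of all genes, 2.63% in that direction. With DC at 22 h, 2 passed, 1 in each direction, against 7.76%, 3.41% higher and 4.35% lower. The median difference over the 8 receptors was 0.90, 0.59, 0.63 and 0.40 in these comparisons, in that order, and over all tested genes 0.02, 0.04, 0.01 and 0.04.

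Separation of the 3 libraries of a group from all 3 unstimulated ones is a weaker criterion than the test. With IF at 8 h, 5 receptors lay wholly above and 1 wholly below, where 14.2% and 16.4% of all tested genes did. With DC at 8 h, 3 were above and 2 below, against 13% and 15.2%. With IF at 22 h, 5 were above and 1 below, against 15.7% and 14.7%, and with DC at 22 h, 2 were above and 2 below, against 12.8% and 14.2%. Tnfrsf9 was among those above in all 4 groups and Cd226 among those below in all 4.

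**Figure D1:**
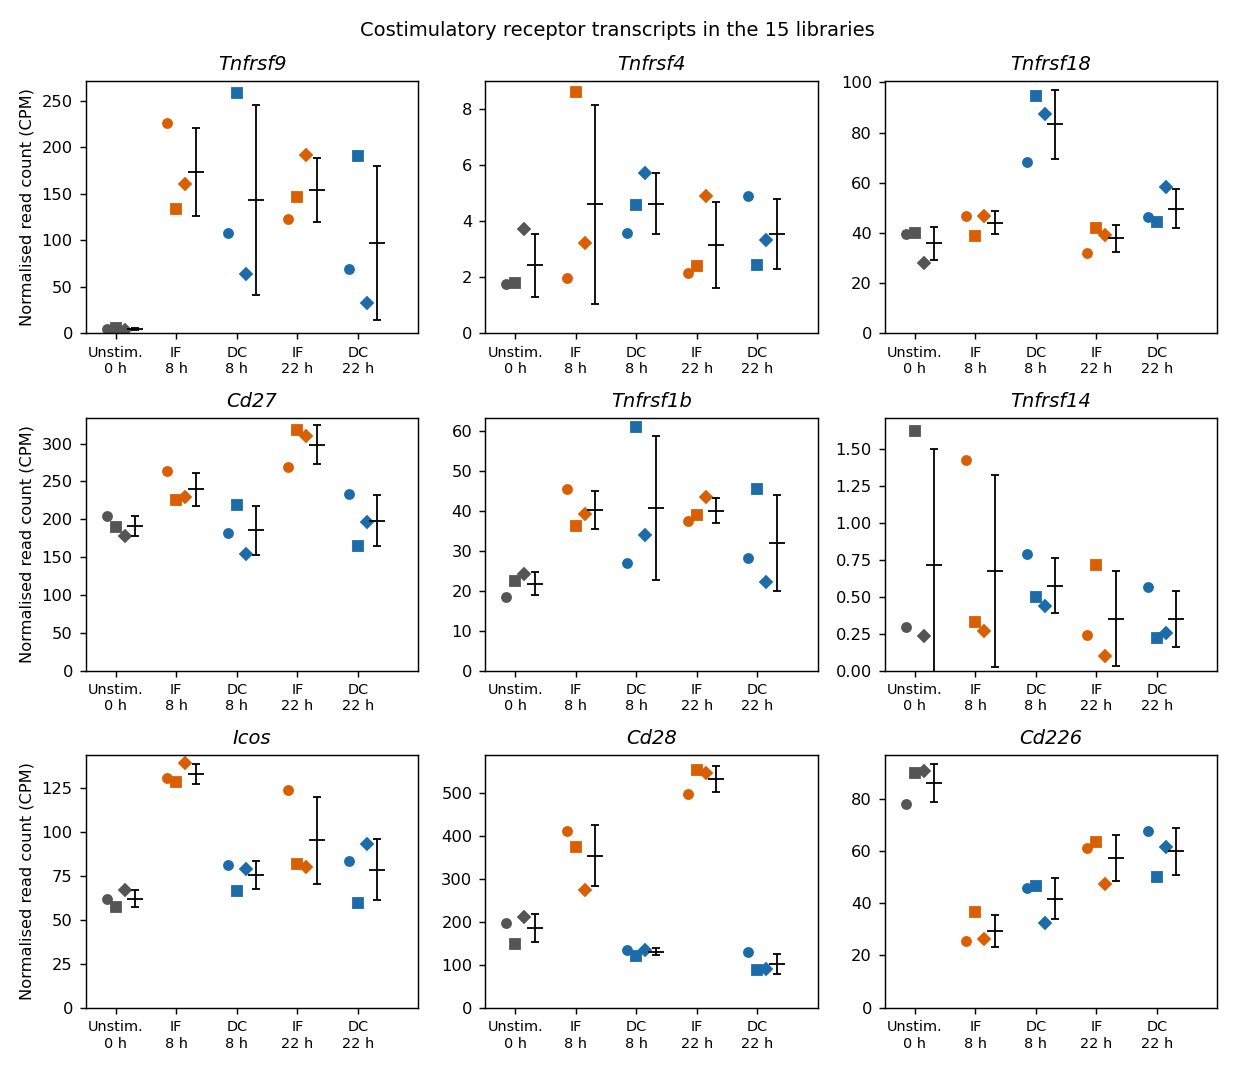
Normalised read counts (CPM) of the 9 receptor genes in the 15 libraries, with 1 panel per gene and the 5 groups on the horizontal axis. Circles, squares and diamonds are replicates 1, 2 and 3, and bars are means ± SD (n = 3). Each vertical axis starts at 0, where bars are clipped, and has its own scale. Cd28 lies at 498 to 554 CPM with IF at 22 h and at 87.3 to 129 CPM with DC at 22 h.

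Tnfrsf9, which encodes 4-1BB, rose with both stimuli at both times, and it had the greatest rise among the 8 tested receptors. Its level was 4.99, 6.14 and 3.49 CPM in the unstimulated libraries. It was 226, 134 and 160 CPM with IF at 8 h and 108, 258 and 63.7 CPM with DC at 8 h. Every stimulated library at 8 h was far above every unstimulated one, whereas the IF and DC ranges overlapped. At 22 h it was 123, 147 and 191 CPM with IF and 69.0, 191 and 32.3 CPM with DC. DC replicate 2 was the highest DC library at both times, and DC replicate 3 the lowest. Against unstimulated cells, the log2 difference was 5.13 ± 0.64 with IF at 8 h (35.1-fold, edgeR adjusted p = 0.000107) and 4.86 ± 0.64 with DC at 8 h (29.0-fold, adjusted p = 0.000184). At 22 h it was 4.96 ± 0.64 with IF (31.1-fold, edgeR adjusted p = 0.000177) and 4.30 ± 0.62 with DC (19.6-fold, adjusted p = 0.000554). The size of the DC rise rested in part on replicate 2: without DC 8 h replicate 2 it was 17.4-fold at 8 h, and without DC 22 h replicate 2 it was 10.3-fold at 22 h, and both calls were kept (edgeR adjusted p = 0.000593 and 0.00100). Without IF 22 h replicates 2 and 3 the IF 22 h call was kept (adjusted p = 0.00656). No difference between the stimuli was detectable at this spread. IF minus DC was 0.28 ± 0.51 at 8 h (95% interval -0.80 to 1.35, edgeR adjusted p = 0.972) and 0.66 ± 0.51 at 22 h (95% interval -0.41 to 1.74, adjusted p = 0.599). These values moved with single DC libraries: IF minus DC was 1.01 at 8 h without DC 8 h replicate 2 (edgeR adjusted p = 0.641), -0.09 without DC 8 h replicate 3 (adjusted p = 0.992) and 1.60 at 22 h without DC 22 h replicate 2 (adjusted p = 0.0848).

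Tnfrsf9 lies on the forward strand at chr4:150914562-150946102 (GRCm38, GENCODE vM21). RefSeq (GRCm38.p6) gives 2 start sites for it, and their upstream sequences are shown because Tnfrsf9 had the greatest rise among the receptors. The first holds the 250 bases before the first start, chr4:150919905-150920154, with a match to the NFAT core in capitals, 221 bases before the start. The second holds 30 bases picked around a match, chr4:150927947-150927976, which begin 52 bases before the second start. In capitals are 2 overlapping matches to the NF-kB consensus, which begin 43 and 42 bases before the start. In GENCODE an exon begins within the 250 bases before this start, upstream of the stretch shown, after chr4:150927917.
Tnfrsf9 first start: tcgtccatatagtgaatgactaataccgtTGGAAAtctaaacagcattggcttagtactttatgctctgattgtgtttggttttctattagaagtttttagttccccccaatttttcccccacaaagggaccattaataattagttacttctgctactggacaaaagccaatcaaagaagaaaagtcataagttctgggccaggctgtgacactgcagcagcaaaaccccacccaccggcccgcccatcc
Tnfrsf9 second start: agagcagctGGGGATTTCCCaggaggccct
The search used the NFAT core TGGAAA, the AP-1 consensus TGANTCA and the NF-kB consensus on both strands. The window of the second start also held an AP-1 match, TGAGTCA, 15 bases before the start. Among all 32851 RefSeq windows of 250 bases, 18.6% held the NFAT core, 6.75% the AP-1 and 3.90% the NF-kB consensus. RefSeq windows of 6 of the 9 receptor genes were searched, without Cd28, Icos and Cd226. Outside Tnfrsf9 the search found 1 match, an NFAT core in the Tnfrsf4 window. These matches describe letters in the sequence and were not measured as bound sites.

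Tnfrsf18, which encodes GITR, rose with DC at 8 h. It was 39.5, 39.9 and 28.2 CPM in unstimulated cells, 68.1, 94.8 and 87.2 CPM with DC at 8 h and 46.7, 38.8 and 46.6 CPM with IF at 8 h. The DC range lay above both others, while the IF range overlapped the unstimulated one. The log2 difference from unstimulated cells was 1.21 ± 0.20 with DC (2.32-fold, edgeR adjusted p = 0.00141) and 0.30 ± 0.20 with IF (adjusted p = 0.41). IF against DC at 8 h gave -0.92 ± 0.20 (1.89-fold lower with IF, edgeR adjusted p = 0.0447). This call was near the threshold and was lost when any of 10 of the 15 libraries was left out, with adjusted p of 0.0529 to 0.189. The exceptions were unstimulated replicate 3, DC 8 h replicate 1, IF 22 h replicate 1 and DC 22 h replicates 2 and 3. With the replicate number as a block the adjusted p was 0.0710. At 22 h Tnfrsf18 stood at 32.02, 42.1 and 39.4 CPM with IF and at 46.3, 44.4 and 58.5 CPM with DC. These ranges did not overlap, but the difference of -0.39 ± 0.20 did not pass (edgeR adjusted p = 0.36). The gene is at chr4:156026164-156028895 and shares exonic bases with Gm16008 on the opposite strand. Whether strand was used in counting is not stated, so reads of the 2 genes may not have been told apart.

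Like Tnfrsf18, markers of dendritic cells were lower with IF than with DC at 8 h, but unstimulated cells did not follow this pattern. Their marker sum overlapped that of DC 8 h, while their Tnfrsf18 level was below that of DC 8 h. The summed level of 20 such markers was 881 to 1287 CPM with DC and 235 to 484 CPM with IF at 8 h, and 706 to 1567 CPM in unstimulated cells. Of the 15 that could be tested, 5 were lower with IF than with DC at 8 h, where 0.434% of all genes were. Against unstimulated cells, 3 were higher with DC at 8 h, Fscn1 (6.16), Ccl22 (7.58) and Cacnb3 (4.50), and 0 lower. The shares of all genes were 2.75% and 4.07%. With IF 1 was higher and 6 lower at 8 h, against 3.04% and 4.72%, and 2 higher and 3 lower at 22 h, against 2.63% and 3.44%. The higher ones with IF, where no DC were added, were Ccl22 at 8 h (4.02) and Fscn1 (3.60) and Ccl22 (4.01) at 22 h. Without both IF 22 h libraries of low mitochondrial ribosomal RNA, these 22 h differences were 1.56 and 3.25. Fscn1 was also called higher at 22 h than at 8 h with IF (5.59, or 3.54 without those libraries). Fscn1, an actin-bundling protein of mature dendritic cells, had a mean of 142 CPM with DC and 0.49 CPM with IF at 8 h. Zbtb46, a transcription factor that marks classical dendritic cells, had means of 1.77 and 0 CPM. Their part in the difference was not tested.

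Tnfrsf4, which encodes OX40, was at 10 to 96 counts per library and passed no comparison. It was 1.76, 1.81 and 3.72 CPM in unstimulated cells, 1.96, 8.62 and 3.21 CPM with IF at 8 h and 3.57, 4.60 and 5.73 CPM with DC at 8 h. At 22 h it was 2.14, 2.39 and 4.90 CPM with IF and 4.89, 2.43 and 3.33 CPM with DC. All neighbouring groups overlapped in the order of their means. The log2 difference from unstimulated cells was 0.90 ± 0.60 with IF and 0.94 ± 0.59 with DC at 8 h (edgeR adjusted p = 0.399 and 0.387). Without IF 8 h replicate 2, the highest library, the IF difference was 0.09 (adjusted p = 0.954). Relative to the T cell markers, a scale on which the median of all genes lay between 0.65 and 1.08, Tnfrsf4 passed with IF at 8 h (1.70), DC at 8 h (1.96) and DC at 22 h (1.46), with edgeR adjusted p of 0.0292, 0.00940 and 0.0421. The gene is at chr4:156013843-156016612, 9.551 kb upstream of Tnfrsf18 on the same strand.

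Tnfrsf1b encodes TNFR2, the TNF receptor that carries no death domain. It was 18.5, 22.4 and 24.2 CPM in unstimulated cells, 45.3, 36.1 and 39.1 CPM with IF at 8 h and 26.8, 61.0 and 33.9 CPM with DC at 8 h. At 22 h it was 37.5, 39.0 and 43.5 CPM with IF and 28.2, 45.3 and 22.0 CPM with DC. All libraries of IF 8 h, DC 8 h and IF 22 h were above all unstimulated libraries, and DC 22 h overlapped them. DC replicate 2 was the highest DC library at both times, as for Tnfrsf9. The log2 differences of 0.90 ± 0.30, 0.91 ± 0.30 and 0.89 ± 0.29 for the first 3 of these groups did not pass, with edgeR adjusted p of 0.0807, 0.0773 and 0.09. With IF at 8 h the adjusted p was 0.0369 without DC 8 h replicate 2 and 0.0390 without DC 22 h replicate 2, and DESeq2 gave 0.0475. Leaving out DC 22 h replicate 2 gave 0.0375 for DC 8 h and 0.0407 for IF 22 h, leaving out DC 8 h replicate 1 gave 0.0423 for DC 8 h, and leaving out DC 8 h replicate 2 gave 0.0405 for IF 22 h. In the other direction, leaving out DC 8 h replicate 2 lowered the DC 8 h difference to 0.49 (edgeR adjusted p = 0.395). For DC 22 h the difference was 0.56 ± 0.30 (edgeR adjusted p = 0.281). The gene lies on the reverse strand at chr4:145213463-145246870.

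Cd27, the receptor of CD70 that naive T cells already carry, differed little except with IF at 22 h. It was 205, 190 and 179 CPM in unstimulated cells and 269, 317 and 310.1 CPM with IF at 22 h, with no overlap. With DC at 22 h it was 233, 165 and 197 CPM, overlapping the unstimulated libraries on both sides. The difference from unstimulated cells was 0.64 ± 0.17 with IF at 22 h (1.56-fold, edgeR adjusted p = 0.0306) and 0.05 with DC (adjusted p = 0.892). This IF call was lost without any 1 of the 3 unstimulated libraries (adjusted p of 0.0644, 0.10 and 0.116) and without IF 22 h replicate 2 or 3 (adjusted p of 0.117 and 0.115). Without both of those IF libraries it was 0.49 (edgeR adjusted p = 0.499). IF against DC at 22 h was 0.59 ± 0.17 (edgeR adjusted p = 0.0777). Over the fits that left out 1 library, this adjusted p ran from 0.0360 without IF 22 h replicate 1 to 0.302 without IF 22 h replicate 2. Without both IF 22 h replicates 2 and 3 the difference was 0.44 and did not pass, and DESeq2 gave an adjusted p of 0.0162. At 8 h Cd27 was 264, 225 and 229 CPM with IF and 182, 219 and 154 CPM with DC, and neither group passed against unstimulated cells (edgeR adjusted p = 0.259 and 0.92). The gene lies on the reverse strand at chr6:125232622-125237010 and shares exonic bases with the microRNA gene Mir8113 on the same strand.

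Tnfrsf14, which encodes HVEM, the receptor of LIGHT and BTLA, had 1 to 9 counts per library. The counts were 2, 9 and 1 in unstimulated cells, 8, 1 and 1 with IF at 8 h and 8, 4 and 3 with DC at 8 h. They were 2, 6 and 2 with IF at 22 h and 5, 2 and 3 with DC at 22 h. These counts overlap between all groups, and the low-count filter left the gene out of the test. The gene lies at chr4:154921933-154928563 on the reverse strand.

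Cd28, the primary costimulatory receptor of naive T cells, was higher with IF and lower with DC than in unstimulated cells. It was 197, 148 and 211 CPM before stimulation. At 8 h it was 412, 375 and 274 CPM with IF and 135, 121 and 134 CPM with DC. All IF libraries were above and all DC libraries below the unstimulated ones. At 22 h it was 498, 554 and 546 CPM with IF and 129, 87.3 and 89.9 CPM with DC, and the 3 ranges again did not overlap. The order of the group means was IF 22 h, IF 8 h, unstimulated, DC 8 h and DC 22 h, and only the 2 DC groups overlapped as neighbours. With IF, the log2 difference from unstimulated cells was 0.93 ± 0.19 at 8 h (1.91-fold, edgeR adjusted p = 0.00766) and 1.52 ± 0.19 at 22 h (2.87-fold, adjusted p = 0.000164). The 22 h value was 1.43 without IF 22 h replicates 2 and 3 and still passed (edgeR adjusted p = 0.0175). With DC it was -0.51 ± 0.19 at 8 h, which did not pass (edgeR adjusted p = 0.127), and -0.86 ± 0.19 at 22 h (1.82-fold lower, adjusted p = 0.0109).

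The direct comparison of the stimuli gave Cd28 a log2 difference of 1.44 ± 0.19 at 8 h (2.72-fold higher with IF, edgeR adjusted p = 0.00123) and 2.38 ± 0.20 at 22 h (5.22-fold, adjusted p = 1.40e-05). At 8 h, 2 of the 8 receptors passed in this comparison, Cd28 higher and Tnfrsf18 lower with IF, where 0.665% of all genes passed, 0.231% higher and 0.434% lower. At 22 h, only Cd28 passed among the 8 receptors, where 2.43% of all genes did, 1.23% higher with IF. Without overlap of IF and DC, 3 receptors were higher and 1 lower with IF at 8 h, against 5.8% and 7.7% of all genes, and 2 were higher and 1 lower at 22 h, against 10.7% and 9.11%. The Cd28 calls at both times were kept in each of the 23 alternative fits run, with adjusted p up to 0.0112 at 8 h and 0.004 at 22 h. Without IF 22 h replicates 2 and 3 together the adjusted p for Cd28 was 0.00304 at 8 h and 0.00225 at 22 h. The IF-DC difference was larger at 22 h than at 8 h by 0.94 ± 0.27. The unadjusted p of this change was 0.00289 and its edgeR adjusted p 0.442, so it did not pass over all genes. From 8 h to 22 h with IF, Cd28 differed by 0.59 ± 0.19 without overlap, which did not pass either (adjusted p = 0.16).

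**Figure D2:**
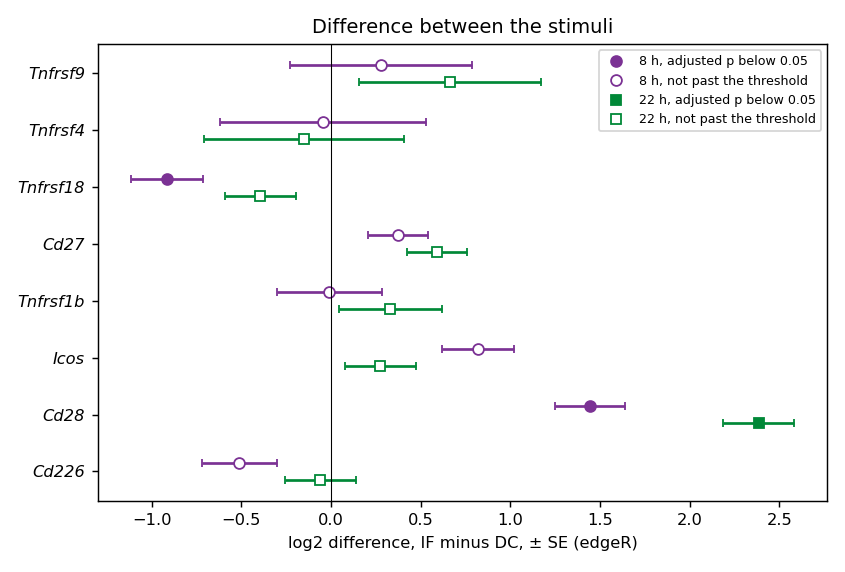
Log2 difference between IF and DC for the 8 tested receptors at 8 h and 22 h, with points for the edgeR estimate and lines for ± SE. Filled points passed the threshold and open points did not, and values above 0 are higher with IF. Cd28 stands at 1.44 and 2.38, and Tnfrsf18 lies at -0.92 at 8 h.

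The lower level of Cd28 with DC depended on the scale, and its excess with IF over DC did not. The T cell marker genes were lower in all stimulated groups, with 6, 9, 4 and 6 of 11 called lower against unstimulated cells with IF 8 h, DC 8 h, IF 22 h and DC 22 h, where 4.72%, 4.07%, 3.44% and 4.35% of all genes were. With IF 22 h there was 1 such call without IF 22 h replicates 2 and 3. Per 1000 CPM of the summed T cell markers, Cd28 was 22.0, 16.7 and 25.7 in unstimulated cells. It was 31.0, 32.5 and 28.7 with DC at 8 h and 28.1, 21.5 and 17.4 with DC at 22 h, so that DC 8 h lay above the unstimulated libraries and DC 22 h overlapped them. With IF it was 83.5, 75.5 and 57.5 at 8 h and 97.1, 88.8 and 100.6 at 22 h, above every other library. Scaling to these markers moves the median of all tested genes against unstimulated cells to 0.84, 1.08, 0.65 and 0.96 in IF 8 h, DC 8 h, IF 22 h and DC 22 h. On that scale Cd28 differed from unstimulated cells by 0.52 with DC at 8 h (edgeR adjusted p = 0.0337) and by 0.06 with DC at 22 h (adjusted p = 0.803). The IF-DC difference on that scale was 1.23 at 8 h (edgeR adjusted p = 0.00941) and 2.09 at 22 h (adjusted p = 6.68e-05), where the median of all genes was -0.22 and -0.31. The DC 22 h call was also lost with scaling to library size alone (-0.53, edgeR adjusted p = 0.0680), when unstimulated and DC 22 h libraries were fitted alone (-0.84, adjusted p = 0.0548) and without unstimulated replicate 3 (adjusted p = 0.0607).

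**Figure D3:**
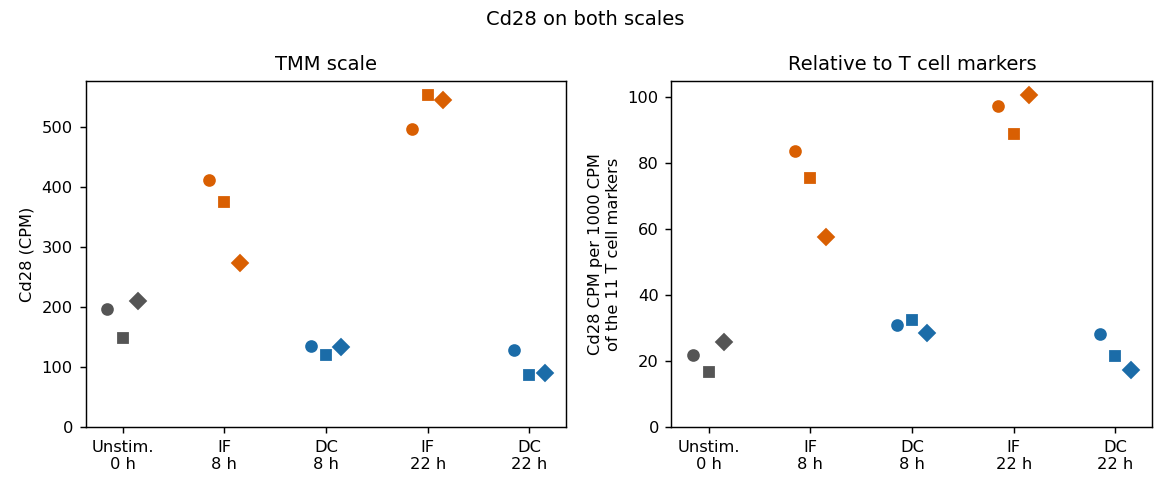
Cd28 in each of the 15 libraries on 2 scales: normalised read counts (CPM) and the same per 1000 CPM of 11 summed T cell marker genes. Circles, squares and diamonds are replicates 1, 2 and 3. The IF libraries are above all others on both scales, while DC 8 h is below the unstimulated libraries on the first and above them on the second.

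Icos, the inducible relative of Cd28, rose with IF at 8 h. It was 61.5, 57.5 and 67.0 CPM in unstimulated cells, 130.4, 128 and 139 CPM with IF at 8 h and 80.8, 66.2 and 78.7 CPM with DC at 8 h. The IF libraries were above all others, and DC overlapped the unstimulated range. The log2 difference from unstimulated cells was 1.10 ± 0.20 with IF (2.14-fold, edgeR adjusted p = 0.00341) and 0.28 ± 0.20 with DC (adjusted p = 0.463). IF against DC at 8 h was 0.82 ± 0.20, just over the threshold with an edgeR adjusted p of 0.0795. Leaving out 1 library gave adjusted p from 0.0353 without DC 22 h replicate 2 and 0.0398 without IF 22 h replicate 1 up to 0.258 without IF 8 h replicate 3, while it was 0.0253 with no low-count filter and 0.0108 by DESeq2. At 22 h Icos was 124, 81.4 and 80.1 CPM with IF and 83.2, 59.3 and 92.9 CPM with DC. All 3 IF libraries were above the unstimulated range, and IF 22 h overlapped DC 22 h. IF 22 h replicate 1, the library of that group with 3.17% mitochondrial ribosomal RNA, was the high one. The IF 22 h difference of 0.62 ± 0.20 did not pass (edgeR adjusted p = 0.0821, or 0.0374 without DC 22 h replicate 2), and without IF 22 h replicate 1 it was 0.38 (adjusted p = 0.271). DC 22 h did not pass either, at 0.34 ± 0.20 (edgeR adjusted p = 0.33). From 8 h to 22 h with IF, Icos differed by -0.48 ± 0.20 (edgeR adjusted p = 0.265), and without IF 22 h replicate 1 by -0.71 (adjusted p = 0.0490).

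Cd28 and Icos lie on the forward strand of chromosome 1 at chr1:60716800-60773359 and chr1:60977927-61000320, 204.567 kb apart. Each encodes a cytoplasmic tail with a tyrosine motif that binds PI3-kinase. The bases that encode it are shown because the 2 motifs are alike in all but the third codon, AAC in Cd28 and TTC in Icos. Each window is 60 bases of exon 4 on the forward strand, with the 4 codons of the motif in capitals (GRCm38, GENCODE vM21). The Cd28 window is chr1:60769669-60769728 and the Icos window chr1:60995536-60995595.
Cd28: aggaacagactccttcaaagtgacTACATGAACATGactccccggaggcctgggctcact
Icos: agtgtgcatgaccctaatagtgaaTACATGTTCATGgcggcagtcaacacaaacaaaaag
The motif takes bases 565 to 576 of the 654 coding bases of Cd28 and bases 541 to 552 of the 600 of Icos.

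Cd226, which encodes DNAM-1, a receptor of CD155 and CD112 that is also found on natural killer cells, fell at 8 h with both stimuli. It was 77.8, 89.6 and 90.5 CPM in unstimulated cells, 25.5, 36.5 and 26.3 CPM with IF at 8 h and 46.0, 46.5 and 32.6 CPM with DC at 8 h. All stimulated libraries were below all unstimulated ones, and IF and DC overlapped. The log2 difference was -1.55 ± 0.21 with IF (2.94-fold lower, edgeR adjusted p = 0.000251) and -1.04 ± 0.20 with DC (2.06-fold lower, adjusted p = 0.00456). Relative to the T cell markers, a scale on which the median of all genes was 0.84 with IF and 1.08 with DC, the DC difference was 0.01 (edgeR adjusted p = 0.967), while the IF difference was -0.73 (adjusted p = 0.0172). At 22 h it was 61.3, 63.6 and 47.4 CPM with IF and 67.7, 50.2 and 61.4 CPM with DC. These levels were still below the unstimulated ones without overlap, but the differences of -0.58 ± 0.20 and -0.52 ± 0.20 did not pass (edgeR adjusted p = 0.1 and 0.128). DESeq2 called the IF difference (-0.60, adjusted p = 0.0450). Relative to the T cell markers, a scale on which the median of all genes was 0.65 with IF and 0.96 with DC, the values were 0.05 and 0.39. The gene is at chr18:89176967-89272229.

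Cd226 was the 1 receptor of 8 that passed between 8 h and 22 h with IF, where 1.12% of all genes passed and 0.637% were higher at 22 h. It was higher at 22 h by 0.97 ± 0.21 (1.96-fold, edgeR adjusted p = 0.035), with no overlap of the 2 groups. Without overlap, 3 receptors were higher and 1 lower at 22 h with IF, against 12.1% and 9.37% of all genes. The call of Cd226 was lost without unstimulated replicate 1 or 2, IF 8 h replicate 1 or 3 or IF 22 h replicate 2 or 3, with adjusted p of 0.0504 to 0.165. Without both IF 22 h libraries of low mitochondrial ribosomal RNA the difference was 1.07 (adjusted p = 0.478). With DC, the difference of 0.52 ± 0.20 from 8 h to 22 h did not pass (edgeR adjusted p = 0.389), though the groups did not overlap. No receptor passed between 8 h and 22 h with DC by edgeR, where 0.48% of all genes did, and 1 receptor was higher and 1 lower without overlap, against 6.88% and 6.99%. At an unadjusted p under 0.05 there were 2 of the 8, where 9.03% of all genes were. DESeq2 called 1, Tnfrsf18, with -0.74 (adjusted p = 0.0203), and 1.94% of all genes. Same-numbered libraries of the 2 DC groups deviated together, as did replicate 1 of each with replicate 3 of the other. A fit of these groups with the replicate number as a block called none of the 8, where 1.63% of all its genes passed. In that fit the edgeR adjusted p was 0.0512 for Tnfrsf9 and 0.0532 for Tnfrsf18.

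**Figure D4:**
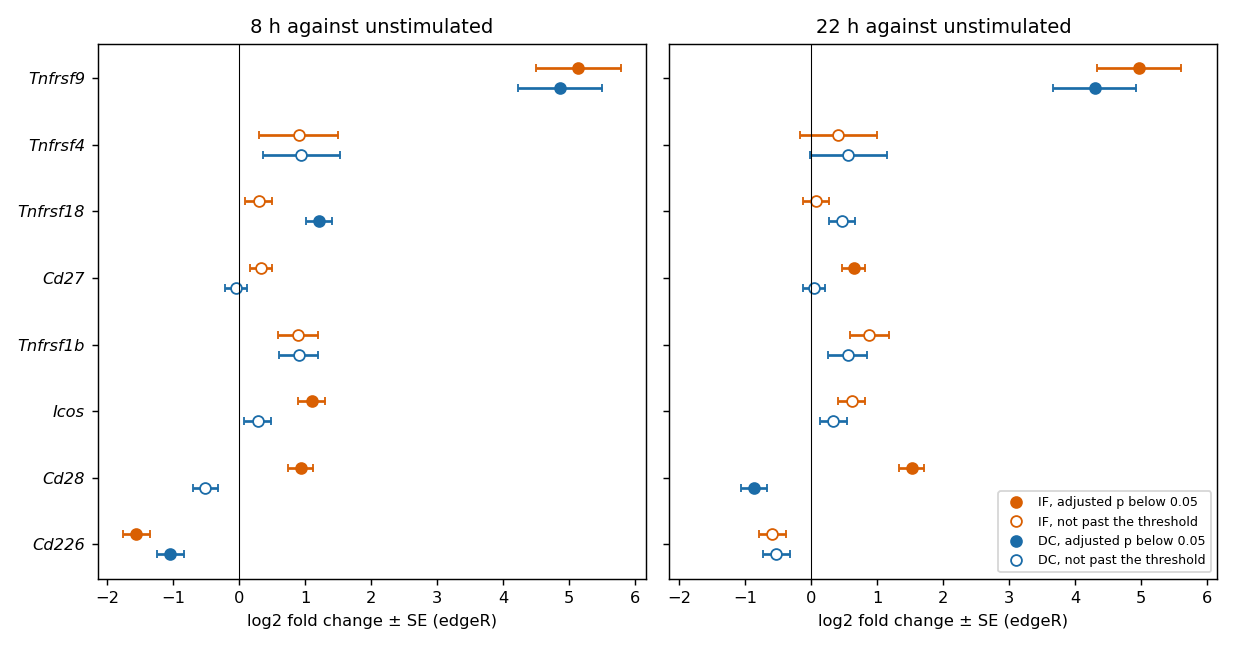
Log2 difference from unstimulated cells for the 8 tested receptors with each stimulus at 8 h and 22 h, with lines for ± SE of the edgeR estimate. Filled points passed the threshold and open points did not. The horizontal axes share 1 scale. Tnfrsf9 lies between 4.30 and 5.13 in all 4 comparisons, and Cd28 is above 0 with IF and below 0 with DC.

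The change of the IF-DC difference from 8 h to 22 h passed for none of the 8 receptors by edgeR, where 0% of all genes passed, and for none of them by DESeq2, which called 40 genes in all, 0.37%. At an unadjusted p under 0.05 there were 858 genes, 7.92% of all, and Cd28 was the 1 receptor among them.

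Downstream of the TNFR family, a list of 21 TRAF and NF-kB genes, 20 of them tested, held calls in both directions. With IF at 8 h 5 were higher and 2 lower, where 3.04% and 4.72% of all genes were, and with DC at 8 h 7 were higher and 1 lower, against 2.75% and 4.07%. At 22 h 2 were higher and 2 lower with IF, against 2.63% and 3.44%, and 4 were higher and 1 lower with DC, against 3.41% and 4.35%. Without both IF 22 h libraries of low mitochondrial ribosomal RNA, 1 call was left with IF at 22 h, Tnfaip3. Relb and Nfkb2, subunits of the alternative NF-kB pathway, rose by 1.55 ± 0.19 and 1.40 ± 0.21 with IF at 8 h (edgeR adjusted p = 9.76e-05 and 0.000517). With DC at 8 h they rose by 1.72 ± 0.19 and 1.94 ± 0.21 (adjusted p = 4.43e-05 and 3.95e-05). Of 15 tested dendritic cell markers, 3 were higher and 0 lower with DC at 8 h, against 2.75% and 4.07% of all genes. With DC at 22 h 3 were higher and 4 lower, against 3.41% and 4.35%. The part of these markers in the changes with DC was not tested. Traf1, an adaptor that binds 4-1BB and is itself an NF-kB target, rose by 0.73 ± 0.18 with IF at 8 h (adjusted p = 0.0215), by 1.61 ± 0.18 with DC at 8 h (adjusted p = 4.75e-05), by 1.08 ± 0.18 with IF at 22 h (adjusted p = 0.00159, or 0.0848 without the 2 libraries) and by 1.20 ± 0.18 with DC at 22 h (adjusted p = 0.000641). The IF 8 h call of Traf1 was lost without any of 5 libraries (unstimulated replicate 1 or 3, or any IF 8 h replicate), with adjusted p up to 0.0991. Tnfaip3, the A20 protein that restrains NF-kB, fell at both times, with -1.44 with IF and -1.33 with DC at 8 h (edgeR adjusted p = 0.00261 and 0.00385) and -2.54 with IF and -2.25 with DC at 22 h (adjusted p = 2.8e-05 and 9.08e-05). Without the 2 libraries the IF 22 h value of Tnfaip3 was -2.95 (adjusted p = 0.00319).

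Between the stimuli, the list's calls were all lower with IF. At 8 h there were 3, where 0.434% of all genes were lower: the NF-kB inhibitor genes Nfkbia (-1.02 ± 0.18, edgeR adjusted p = 0.0126) and Nfkbie (-1.40 ± 0.25, adjusted p = 0.0135), and Traf1 (-0.88 ± 0.18, adjusted p = 0.0288). Each of these was lost without single libraries: Nfkbia without any IF 8 h replicate or DC 8 h replicate 2, Nfkbie without IF 8 h replicate 2 or 3 or DC 8 h replicate 2, and Traf1 without any library of the 2 groups, with adjusted p up to 0.114. At 22 h there were 2, against 1.2% of all genes, Nfkbia (-1.22 ± 0.18, adjusted p = 0.00123) and Nfkb2 (-1.21 ± 0.20, adjusted p = 0.0036). Neither passed without IF 22 h replicates 2 and 3, with -0.98 and -1.29 (edgeR adjusted p = 0.281 and 0.207). The dendritic cell markers were also lower with IF than with DC at 8 h, while at 22 h their sums of 394 to 640 CPM with IF and 492 to 693 CPM with DC overlapped. Their part in these differences was not tested. From 8 h to 22 h with IF, 4 list genes were called lower, Relb, Nfkb2, Nfkbia and Tnfaip3, where 0.48% of all genes were, and all 4 calls were lost without IF 22 h replicates 2 and 3 (edgeR adjusted p of 0.356 to 0.861). With DC 2 were called lower, against 0.102% of all genes, Birc3 (-1.19 ± 0.20, edgeR adjusted p = 0.0128) and Relb (-0.94 ± 0.18, adjusted p = 0.0283). In the fit of the DC groups with the replicate number as a block, 4 list genes were lower, where 1.63% of all genes passed in either direction, with Birc3 at -1.18 ± 0.18 (adjusted p = 0.0152) and Relb at -0.96 ± 0.15 (adjusted p = 0.0162). Without the block, Birc3 was lost without replicate 1 or 2 of either DC group, and Relb without those or DC 8 h replicate 3, with adjusted p up to 0.163.

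Of 20 tested genes of proximal CD28 and ICOS signalling, the calls against unstimulated cells were 4, 4, 3 and 4 lower levels with IF 8 h, DC 8 h, IF 22 h and DC 22 h, where 4.72%, 4.07%, 3.44% and 4.35% of all genes were lower. Over all genes, too, lower calls outnumbered higher ones in these comparisons. Lck, the kinase that phosphorylates the antigen receptor and CD28, fell by 0.80, 0.84, 0.47 and 0.59 in that order. The summed T cell markers were lower in the same groups, and their part in these calls was not tested. All 3 IF 22 h calls of this list were lost without IF 22 h replicates 2 and 3, where the Lck difference was -0.41 (edgeR adjusted p = 0.417).

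Among 8 tested inhibitory counterparts, Ctla4 rose in all 4 stimulated groups. CTLA-4 competes with CD28 for CD80 and CD86. Its mean level was 3.39 CPM in unstimulated cells, 16.1 and 15.4 CPM with IF and DC at 8 h and 8.87 and 18.1 CPM with IF and DC at 22 h. The differences from unstimulated cells were 2.26 ± 0.28 and 2.19 ± 0.28 at 8 h (edgeR adjusted p = 0.000107 and 0.000152) and 1.40 ± 0.28 and 2.43 ± 0.28 at 22 h (adjusted p = 0.00616 and 8.43e-05). The Ctla4 difference with IF at 22 h was 1.31 without IF 22 h replicates 2 and 3 (edgeR adjusted p = 0.156). At 22 h Ctla4 was lower with IF than with DC by -1.03 ± 0.25 (edgeR adjusted p = 0.0369), the opposite direction to Cd28. That call was lost without those 2 libraries (-1.12, adjusted p = 0.665) and without any IF 22 h library, DC 22 h replicate 1 or 2 or DC 8 h replicate 1 alone (adjusted p up to 0.189). Lag3, an inhibitory receptor of MHC class II, rose with IF at 22 h (4.17 ± 0.92, edgeR adjusted p = 0.0121), which was lost without IF 22 h replicates 2 and 3 (3.73, adjusted p = 0.189), and without unstimulated replicate 2 or 3 or IF 22 h replicate 3 alone (adjusted p up to 0.0542). Cd96, which shares the ligand CD155 with Cd226, fell with DC at 8 h (-0.78 ± 0.17, edgeR adjusted p = 0.0103, or 0.0503 without unstimulated replicate 2).

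The ligands of these receptors and the other TNFR genes are read against the share of all genes called, which was at most 7.76% in any comparison. Of 13 ligand genes, 11 were in the tables and 7 could be tested, and none passed in any of the 9 comparisons by edgeR. At an unadjusted p under 0.05 there was at most 1 of 7 per comparison, where 7.92% to 22.9% of all genes were, and DESeq2 called 1, Lta, which encodes lymphotoxin alpha, with DC at 8 h (1.66, adjusted p = 0.0266), where it called 10.9% of all genes. Of 14 tested other TNFR genes, 2 rose with DC at 8 h, Fas, the death receptor (1.39 ± 0.31, edgeR adjusted p = 0.0113), and Tnfrsf25, the receptor of TL1A (0.97 ± 0.25, adjusted p = 0.025). Fas was lost without unstimulated replicate 3 or DC 8 h replicate 2, and Tnfrsf25 without unstimulated replicate 1 or 2 or DC 8 h replicate 3, with adjusted p up to 0.108. Tnfrsf13b was called lower with IF at 22 h, where it is listed at 0, and this was lost without IF 22 h replicates 2 and 3 (adjusted p = 0.496).

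Survival genes known as costimulation targets also split. Il2ra, the high-affinity interleukin-2 receptor chain, rose by 4.54, 4.70, 3.73 and 4.42 with IF 8 h, DC 8 h, IF 22 h and DC 22 h, and the pro-apoptotic gene Bcl2l11 by 2.49, 1.89, 2.01 and 1.22. Bcl2, a survival protein of resting T cells, fell by 1.55, 1.58, 1.18 and 0.87. Without IF 22 h replicates 2 and 3, Bcl2l11 was still called with IF at 22 h (1.91, edgeR adjusted p = 0.00729), but Il2ra (3.43, adjusted p = 0.262) and Bcl2 (-0.88, adjusted p = 0.198) were not. Leaving out single libraries also ended Il2ra calls with IF at 8 h (unstimulated replicate 2), IF at 22 h (any unstimulated replicate, IF 22 h replicate 2 or 3) and DC at 22 h (unstimulated replicate 1 or 2), and the Bcl2 call with DC at 22 h (unstimulated replicate 1). Bcl2l1, which encodes the survival protein Bcl-xL, rose with DC at 8 h (2.36 ± 0.43, edgeR adjusted p = 0.00272) and at 22 h (1.75 ± 0.42, adjusted p = 0.0166). It was lower with IF than with DC by -2.02 ± 0.42 at 8 h (edgeR adjusted p = 0.0356) and -1.99 ± 0.41 at 22 h (adjusted p = 0.0167), the opposite direction to Cd28. At 8 h 5 of 15 tested dendritic cell markers were also lower with IF than with DC, where 0.434% of all genes were. The median difference over the 15 was -1.89. At 22 h 2 were lower, Ccl22 (-2.93) and Cacnb3 (-3.39), and 1 higher, Itgax (2.32), against 1.2% and 1.23% of all genes. Without IF 22 h replicates 2 and 3 these differences were -3.65, -4.62 and 1.83. The part of these markers in the Bcl2l1 difference was not tested. Without IF 22 h replicates 2 and 3 neither difference of Bcl2l1 passed, with -2.03 at 8 h and -2.42 at 22 h (edgeR adjusted p = 0.0514 and 0.319). The DC 22 h and both IF-DC calls of Bcl2l1 were lost without DC 22 h replicate 2 or unstimulated replicate 1 or 3 (DC 22 h), IF 8 h replicate 2 or 3, DC 8 h replicate 2 or DC 22 h replicate 1 (8 h) and IF 22 h replicate 2 or 3 or DC 22 h replicate 2 (22 h).

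Across the 15 libraries, the genes whose log2 CPM followed each receptor most closely were found among all tested genes. These correlations mix group differences with library depth and are descriptions. For Cd28 they were Pou2af1 (Pearson r = 0.931), Ccl9 (r = 0.913) and Sept7 (r = 0.906). Pou2af1, a coactivator known from B cells, had means of 8.98, 28.45, 4.96, 71.00 and 5.26 CPM in unstimulated, IF 8 h, DC 8 h, IF 22 h and DC 22 h, the same order as Cd28 except among the DC groups. The sums of the B cell markers were 23.0 to 29.1 CPM in unstimulated cells, 10.3 to 44.1 and 5.59 to 18.1 CPM with IF and DC at 8 h, and 28.8 to 46.6 and 5.97 to 21.4 CPM with IF and DC at 22 h, without overlap of the latter. The median difference of the 5 tested B cell markers was 2.12 for IF against DC at 22 h. None of the 5 passed by edgeR, 2 had an unadjusted p under 0.05 and DESeq2 called 1. The shares of all genes were 2.43%, 15.3% and 5.2%. The part of the B cell markers in these correlations was not tested. For Tnfrsf9 the closest genes were Tnip3 (r = 0.959), Tg (r = 0.953) and Trmt5 (r = 0.937), and Tnip3, which binds A20, was at 0 in unstimulated cells and at means of 6.04 to 11.84 CPM after stimulation. For Tnfrsf18 they were Mapkapk3 (r = 0.929), Alkbh6 (r = 0.912) and Nfkbie (r = 0.910). For Icos they were Rasa1 (r = 0.906), Fam102b (r = 0.897) and Neurl3 (r = 0.881). For Cd226 they were Ccdc69 (r = 0.922), Nrm (r = 0.908) and Ctsw (r = 0.900), and for Cd27 Stambpl1 (r = 0.881), 4921525O09Rik (r = 0.840) and Zfp36l1 (r = 0.840).

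Among the receptors themselves, Tnfrsf9 and Tnfrsf1b varied together across the 15 libraries (r = 0.857), as did Cd27 and Cd28 (r = 0.818). Tnfrsf9 and Cd226 ran opposite (r = -0.716), as did Icos and Cd226 (r = -0.655). Cd28 correlated with Icos at r = 0.539 and with Tnfrsf18 at r = -0.520.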

How the data were processed

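RNA of 15 libraries was measured with an adapted CEL-seq protocol, with oligo-dT primers and amplification by in vitro transcription, per the labels' protocols. BWA and mm10 are named in the submitters' processing notes. The counting program, the use of strand and of molecular identifiers are not given in the sources used here. The authors deposited unnormalised counts per gene.

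Counts were analysed with edgeR 4.0.16 in R 4.3.3: filterByExpr (minimum count 10, minimum total 15), TMM scaling, 1 quasi-likelihood fit with 5 group means, two-sided tests, Benjamini-Hochberg adjustment over 10831 genes and a prior count of 0.125. DESeq2 1.42.0 was an alternative. The 9 receptors were all named, with the 3 genes most like each called receptor (log2 CPM, prior count 2) and up to 4 genes per list and comparison by p-value. Other genes named (Fscn1, Zbtb46, Cd4, Klra8, Lta and Tnfrsf13b, and Traf1 and Tnfaip3 at 8 h) were chosen after their values were seen. The members and lists were chosen with earlier results of these data known.

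The replicate numbers were checked for pairing: over 30 same-numbered pairs, the correlation of deviations from group means ran from -0.19 to 0.40, with 4 over 0.1. All 3 same-numbered pairs of DC 8 h with DC 22 h were over 0.1, so a block was also fitted to these groups alone. In no other comparison were all 3 over 0.1. Unlike-numbered pairs passed 0.1 there too, with 0.107 for DC 8 h replicate 1 and DC 22 h replicate 3. The reverse pair, DC 8 h replicate 3 and DC 22 h replicate 1, gave 0.117. Pairing by number is thus not established.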

Additional observations from a re-analysis of the deposited data

Results flagged for a closer look

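Cd28 at 8 h and at 22 h is listed because its response differed between the stimuli by the direct IF-DC test. The log2 difference of Cd28 was 1.44 at 8 h and 2.38 at 22 h, with all 3 IF libraries above all 3 DC libraries at both times. Tnfrsf18 at 8 h differed by the same test with -0.92, with all 3 DC libraries above all 3 IF libraries. This Tnfrsf18 call (edgeR adjusted p = 0.0447) was lost when any of 10 of the 15 libraries was dropped, with adjusted p up to 0.189. It was also lost with the replicate block (0.0710), when the 8 h IF and DC libraries were fitted alone (0.0859) and without IF 22 h replicates 2 and 3 (0.0701).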

How the results depend on the processing

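Leaving out 1 library at a time gave 4 to 5 called receptors for IF 8 h, 3 to 4 for DC 8 h, 2 to 5 for IF 22 h and 1 to 2 for DC 22 h, against 4, 3, 3 and 2. In these fits 3.75% to 10.1%, 3.61% to 9.45%, 2.53% to 8.49% and 4.06% to 8.81% of all genes passed. There were 1 to 3 for IF against DC at 8 h (2 as reported), 1 to 2 at 22 h (1) and 0 to 2 for IF 22 h against 8 h (1). Of all genes, 0.242% to 1.01%, 0.805% to 6.81% and 0.215% to 4.85% passed. For the DC times and for the change of the IF-DC difference there were 0, where up to 1.24% and 2.5% of all genes passed. The 5 for IF 22 h came without DC 22 h replicate 2 and the 1 for DC 22 h without unstimulated replicate 3. In those fits 8.2% and 4.34% of all genes passed. For IF 22 h, library size alone and DESeq2 gave 5 each, where they called 7.74% and 9.85% of all genes and the fit as reported 6.08%. Library size alone puts the median of all genes against unstimulated cells at 0.22 to 0.37. Fitting only the groups compared gave 1 for DC 22 h, 1 for IF against DC at 8 h and 0 for IF 22 h against 8 h, with 5.13%, 0.482% and 1.02% of all genes called. DESeq2 gave 2 for IF against DC at 22 h and 1 for the DC times, with 5.2% and 1.94%. The replicate block gave 1 for IF against DC at 8 h, with 0.499%, and changed no other count of called receptors, and 9 of 15 libraries correlated best with their own number. Without IF 22 h replicates 2 and 3 together there were 2 for IF 22 h, with Cd27 lost, 1 for IF against DC at 8 h and 0 for IF 22 h against 8 h, with 0.833%, 0.437% and 0% of all genes called.

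Scaling to the summed T cell markers, chosen after seeing the data, gave 8, 7, 6 and 6 for IF 8 h, DC 8 h, IF 22 h and DC 22 h, and 0 for IF 22 h against 8 h, where 51%, 66.3%, 34.6%, 61.4% and 0.757% of all genes were called. Its direction differed for DC 8 h in Cd27 (1.02), Cd28 (0.52) and Cd226 (0.0113) and for DC 22 h in Cd28 (0.0599), and at 22 h, where neither scale gave a call, for Cd226 with IF (0.0512) and DC (0.392). These scaled values carry the fall of the markers by construction. Tnfrsf9 in all 4 stimulated groups, Icos and Cd226 with IF at 8 h, Tnfrsf18 with DC at 8 h and Cd28 with IF kept their calls in all 23 alternatives each. Tnfrsf14, with 1 to 9 counts per library, was left out by the low-count filter.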
